A study of Mus musculus with 6 samples.

Results

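*Rsad2*, *Cmpk2*, *Mx1*, *Mx2*, *Bst2*, *Ifitm1*, *Ifitm2* and *Ifitm3* are 8 genes whose products act directly on viruses or on the nucleotides that viruses use. They were picked by name, as the rows of the deposited gene table whose symbol is one of these 8, out of 59485 genes in the table and 25802 that were abundant enough to test. All 8 were found and all 8 were tested. The table comes from sciatic nerves of mice at postnatal day 4 (P4), with 3 control and 3 mutant animals and 1 RNA-seq library per animal. The labels give the mutant genotype as Ht-PA-Cre; Adar1fl/fl;R26R and call the controls wild-type, while the paper applies the word controls to wild-type and heterozygous mice together. In the mutants, Cre under the human tissue plasminogen promoter acts in neural crest cells and their descendants, which include the Schwann cells (SCs) of the nerve, and R26R is a YFP tracer of these cells. Endothelial cells, muscle and blood do not come from the neural crest, so each value sums over cells with and without the Cre, and fewer cells of a type cannot be told apart from less RNA per cell.

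ADAR1 converts adenosine to inosine in double-stranded RNA, and unedited cellular RNA of this kind is known as a ligand of the sensor MDA5, encoded by *Ifih1*. Sensing leads to type I interferon, which signals through the receptor IFNAR, JAK1 and TYK2 to a transcription factor complex that holds IRF9. This complex binds the interferon-stimulated response element (ISRE) beside interferon-stimulated genes (ISGs), and the 8 genes are textbook examples of ISG families. Viperin (*Rsad2*) is a radical SAM enzyme that makes a chain-terminating nucleotide from CTP, and *Cmpk2* encodes a mitochondrial UMP/CMP kinase. *Mx1* and *Mx2* encode dynamin-like GTPases, tetherin (*Bst2*) holds budding virions at the cell surface, and the IFITM proteins hinder fusion of virus and cell membranes.

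Promoter sequences show how the ISRE is spelled beside the genes that have one. RefSeq windows of 300 bases (250 before and 50 after the start, GRCm38.p6, the mm10 assembly) were found for 6 of the 8 genes and not for *Mx1* and *Mx2*. The ISRE core was searched as GAAANNGAAA on both strands, and it is present in 3.44% of 32851 windows of this length. It was found in *Rsad2*, *Bst2*, *Ifitm2* and *Ifitm3*. The pieces below hold every match in 30 bases, 5′ to 3′ on the strand of the gene, with the core in capitals.
Rsad2 (chr12:26456553-26456582, minus strand): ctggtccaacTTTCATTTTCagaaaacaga
Bst2 (chr8:71537580-71537609, minus strand): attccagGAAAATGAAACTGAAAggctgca
Ifitm2 (chr7:140955988-140956017, minus strand): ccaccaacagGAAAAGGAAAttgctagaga
Ifitm3 (chr7:141010715-141010744, minus strand): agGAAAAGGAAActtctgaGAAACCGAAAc

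In *Rsad2* the core lies on the opposite strand, at bases -120 to -111 from the RefSeq start. *Bst2* has a pair of overlapping cores, at -130 to -121 and at -124 to -115. *Ifitm2* has 1 core at -46 to -37, and *Ifitm3* has the same 10 letters at +3 to +12 and another core at +20 to +29, both after its RefSeq start. A further motif, TTCNNNGAA (the core of the gamma-activated site, or GAS, present in 8.3% of windows), was found in *Bst2* at -136 to -128, where it overlaps the first ISRE core, and in *Ifitm3* at +14 to +22, where it overlaps the second. In *Cmpk2* and *Ifitm1* neither spelling occurs within the window. The *Ifitm1* window, with upstream bases at chr7:140967826-140968075, lies inside the deposited gene, which starts at 140967429. Bases before that deposited start were not searched. The upstream bases of *Rsad2* and its neighbor *Cmpk2*, and of the paralogs *Ifitm2* and *Ifitm3*, are given because the genes of each pair are compared below, with ISRE cores in capitals.
Rsad2 (chr12:26456453-26456702, minus strand): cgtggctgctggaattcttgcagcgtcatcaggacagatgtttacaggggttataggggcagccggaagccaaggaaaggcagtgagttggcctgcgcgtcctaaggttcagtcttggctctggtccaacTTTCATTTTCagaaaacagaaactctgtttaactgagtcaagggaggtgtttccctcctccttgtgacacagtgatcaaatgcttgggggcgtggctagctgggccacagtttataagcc
Cmpk2 (chr12:26468965-26469214, plus strand): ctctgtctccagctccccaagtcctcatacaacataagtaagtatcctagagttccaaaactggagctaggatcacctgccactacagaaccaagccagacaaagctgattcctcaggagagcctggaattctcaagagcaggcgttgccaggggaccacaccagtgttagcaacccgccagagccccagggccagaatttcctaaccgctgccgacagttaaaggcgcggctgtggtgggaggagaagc
Ifitm2 (chr7:140955962-140956211, minus strand): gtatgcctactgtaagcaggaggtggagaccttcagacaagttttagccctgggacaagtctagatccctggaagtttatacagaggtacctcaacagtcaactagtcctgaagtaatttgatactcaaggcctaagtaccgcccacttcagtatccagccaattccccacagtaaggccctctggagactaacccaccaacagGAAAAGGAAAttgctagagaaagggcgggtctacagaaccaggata
Ifitm3 (chr7:141010745-141010994, minus strand): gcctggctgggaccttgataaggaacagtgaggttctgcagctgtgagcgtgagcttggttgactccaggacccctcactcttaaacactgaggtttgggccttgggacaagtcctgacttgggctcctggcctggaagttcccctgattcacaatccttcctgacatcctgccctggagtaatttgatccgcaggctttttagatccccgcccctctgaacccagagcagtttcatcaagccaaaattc

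The values are reads counted on the constitutive regions of a gene, divided by a size factor per library, and between 50938349 and 78250094 reads per library fell on genes. In the targeted gene *Adar*, the 3 controls had 1602, 2066 and 1133 and the 3 mutants 11768, 9311 and 9773 (log2 fold change 2.72, SE 0.20, adjusted p = 4.1e-05 from limma). This goes against the deletion in the labels, and a single value per gene cannot separate the deleted segment from the rest, so libraries are called control-labelled and mutant-labelled and every direction rests on the labels. The SC transcription factor gene *Sox10* was present in all 6 libraries, with 11752 ± 849.7 in controls and 7279 ± 1712 in mutants (log2 fold change -0.71), and the SC receptor gene *Erbb3* had 10348 ± 1033 and 3589 ± 828.

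In the P4 nerve, 6 of the 8 antiviral genes rose in the mutant-labelled libraries, by 14-fold (*Ifitm3*) to 373-fold (*Mx1*) as ratios of mean values. *Ifitm1* and *Ifitm2* did not pass the threshold, which asked for a 2-fold change or more together with an unadjusted p no larger than 0.05, and none of the 8 fell. The same threshold was passed by 24.2% of all tested genes in either direction and by 13.9% in the direction of a rise. All 6 kept the call when an adjusted p (Benjamini-Hochberg over all tested genes) of no more than 0.05 was asked for, and 11.5% of tested genes passed as risen in that way. In 7 of the 8 genes all 3 mutant-labelled values lay above all 3 control-labelled values, against 25.9% of tested genes. The median log2 fold change was 4.90 for the 8 genes and 0.03 for all tested genes.

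**Figure D1:**
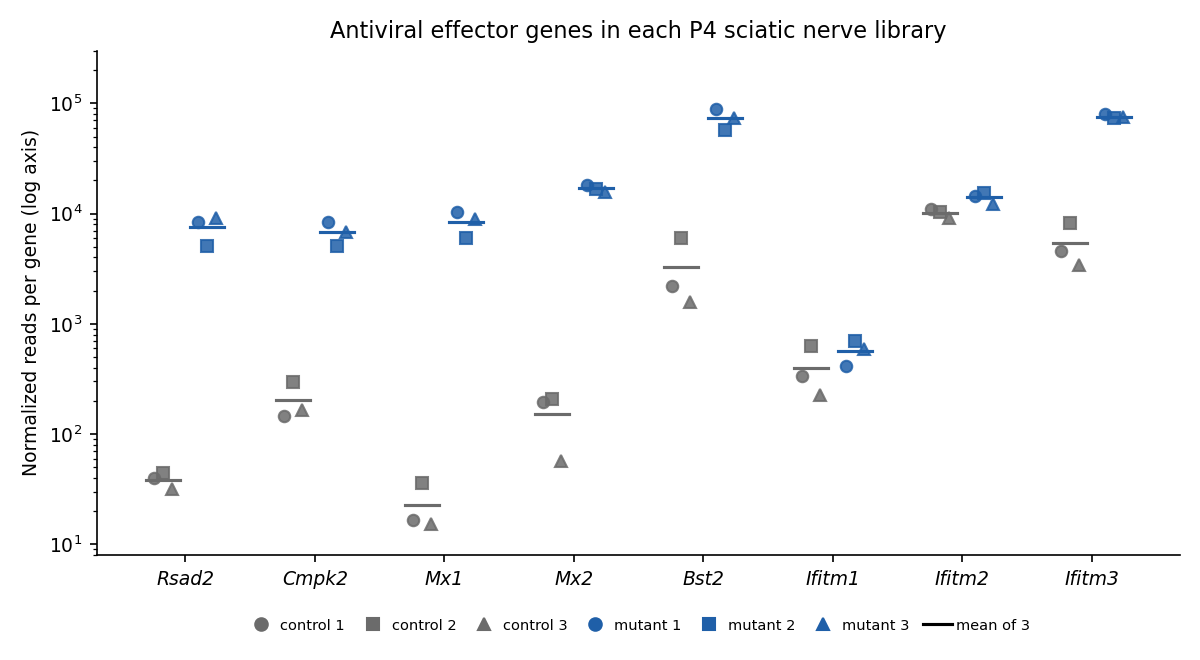
Normalized reads per gene on a log axis for the 8 antiviral genes, with 1 point per library (gray for control-labelled, blue for mutant-labelled, shapes for replicates) and a bar at the mean of 3. *Rsad2*, *Cmpk2*, *Mx1*, *Mx2*, *Bst2* and *Ifitm3* are separated by wide gaps, *Ifitm2* by a narrow one, and *Ifitm1* overlaps.

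*Rsad2* (GSMG0008754, chr12:26442743-26456452, minus strand) stood at 40.0, 44.4 and 31.7 in the control-labelled libraries, in the order of replicates 1 to 3 that is used for all values here. It stood at 8310.5, 5108 and 9192 in the mutant-labelled libraries. The lowest mutant-labelled value was 115 times the highest control-labelled value. Means were 38.7 ± 6.46 and 7537 ± 2149 (SD, n = 3), and the log2 fold change was 7.54 (SE 0.24, adjusted p = 1.35e-06 from limma). Only 25 to 47 reads stood behind each control value, so counting error weighs more there than in the mutants. *Rsad2* ranked 18028 among tested genes by control mean and 1371 by mutant mean.

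*Cmpk2* (GSMG0007909, chr12:26469204-26479835, plus strand) had values of 145, 299.5 and 165 in the controls. The mutant-labelled libraries had 8414, 5095 and 6814, so the groups were far apart and control replicate 2 was the highest of its group. Means were 203 ± 83.9 and 6775 ± 1659.9 (n = 3), with a log2 fold change of 5.10 (SE 0.28, adjusted p = 1.07e-05 from limma). The starts of *Cmpk2* and *Rsad2* lie 12752 bases apart and the genes point away from each other. In the mutants they had nearly the same value in replicates 1 and 2. In the controls *Cmpk2* was the higher of both in every library, so the log2 ratio of *Cmpk2* to *Rsad2* went from 2.30 ± 0.45 to -0.14 ± 0.25. The difference of -2.44 had an exact two-sided permutation p of 0.1 (0.125 adjusted over 5 pairs), and 0.1 is the smallest p that 3 libraries against 3 allow.

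*Mx1* (GSMG0016127, chr16:97447035-97462908, minus strand) had the largest change of the 8. It stood at 16.7, 35.9 and 15.2 in the controls, from 12 to 38 reads. It stood at 10393, 6016 and 8855 in the mutants, where mutant replicate 2 was the lowest. Means were 22.6 ± 11.6 and 8421 ± 2221 (n = 3), and the log2 fold change was 8.55 (SE 0.34, adjusted p = 2.4e-06 from limma). Among all tested genes, 9 had a larger log2 fold change.

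*Mx2* (GSMG0015358, chr16:97535304-97560905, plus strand) had values of 194, 209 and 57.0 in the controls. The mutant-labelled values of 18260.5, 16833 and 15697 lay close together, with a coefficient of variation of 7.59% against 54.6% in the controls. Means were 153 ± 83.8 and 16929.9 ± 1285 (n = 3), and the log2 fold change was 6.98 (SE 0.43, adjusted p = 1.6e-05 from limma). Control replicate 3 was the lowest control, and without it the log2 fold change was 6.38. *Mx2* exceeded *Mx1* in every library, and the log2 ratio of *Mx2* to *Mx1* was 2.60 ± 0.82 in the controls and 1.04 ± 0.38 in the mutants, a difference of -1.56 (exact permutation p = 0.1, adjusted 0.125). With 10 instead of 1 added to each value, the difference was -1.16 and the exact permutation p was 0.2, as it was without any 1 of the mutant libraries. Transcripts of both share an identical run of up to 140 bases, longer than a read of 130 bases, so some reads can be split between them. In the reference strain RefSeq lists both genes as transcribed pseudogenes, while GENCODE M21 lists *Mx1* as protein coding and *Mx2* as a polymorphic pseudogene. The values here are transcript levels, not protein.

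*Bst2* (GSMG0038582, chr8:71534258-71537438, minus strand) was already abundant in the controls, at 2204, 6035 and 1562. The mutant-labelled libraries had 89235, 56806 and 72948, and the lowest of them was 9.41 times the highest control. Means were 3267 ± 2418 and 72997 ± 16214 (n = 3), with a log2 fold change of 4.71 (SE 0.43, adjusted p = 0.000105 from limma). The control spread was the widest of the 8 genes, with a coefficient of variation of 74%, and control replicate 2 was 3.2 times the mean of the other two. By mean mutant-labelled value *Bst2* ranked 62 among tested genes, and *Ifitm3* ranked 58.

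The *Ifitm* genes lie together on chromosome 7, and 1 of the 3 rose past the threshold. *Ifitm3* (GSMG0036851, chr7:141009590-141010759, minus strand) encodes the endosomal family member that is known for blocking influenza virus entry. Its values were 4552, 8300.0 and 3386 in the controls. The mutants had 79500.4, 73239.8 and 74658, and differed among themselves by no more than 1.09-fold. Means were 5413 ± 2568 and 75799 ± 3283 (n = 3), and the log2 fold change was 3.91 (SE 0.27, adjusted p = 2.88e-05 from limma).

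*Ifitm2* (GSMG0036850, chr7:140954837-140955989, minus strand), also an endosomal family member, was the most abundant of the 8 in the controls, with values of 11000.0, 10345 and 9185. In the mutants it had 14359, 15385 and 12249.7, so the lowest mutant-labelled value was 1.11 times the highest control. Means were 10177 ± 919 and 13998 ± 1598 (n = 3), and the log2 fold change of 0.46 (SE 0.11, adjusted p = 0.0147 from limma) stayed under 2-fold. Its groups were separate by this narrow margin.

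*Ifitm1* (GSMG0035337, chr7:140967429-140969827, plus strand), whose product sits mainly at the cell surface, had 339, 623 and 226 in the controls. It had 410.2, 697 and 589 in the mutants. The groups overlapped, since control replicate 2 lay above 2 of the 3 mutant-labelled values. Means were 396 ± 205 and 565 ± 145 (n = 3), and the log2 fold change of 0.61 (SE 0.36, adjusted p = 0.228 from limma) did not exceed the spread between libraries. Without control replicate 2 the adjusted p from limma was 0.0432 and the change came just short of 2-fold, and without control replicate 3 the log2 fold change was 0.27.

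**Figure D2:**
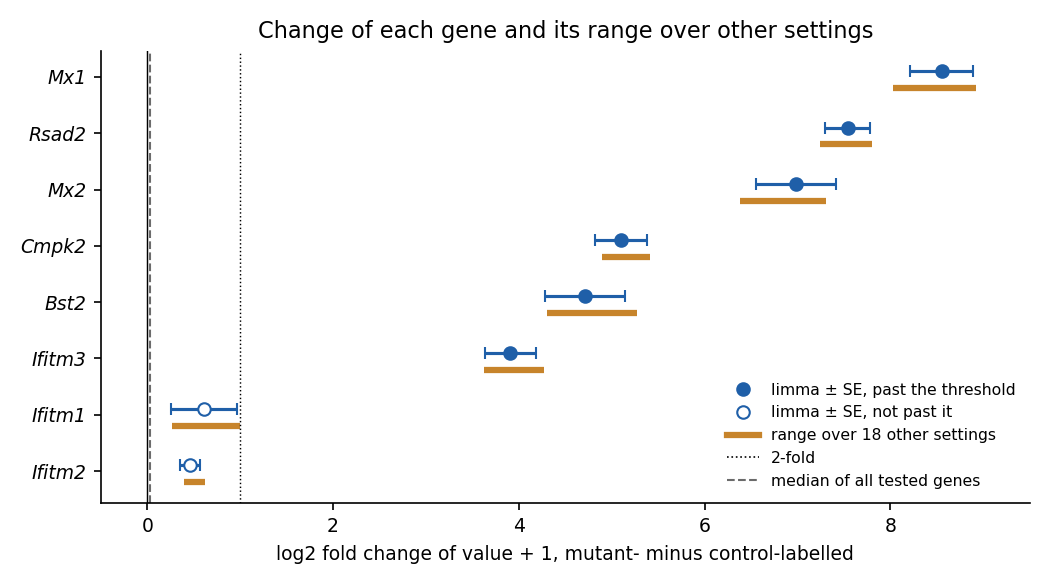
Log2 fold change of value + 1 for each gene (points, filled where past the threshold; whiskers are SE, n = 3 against 3) and the range of the same value under 18 other settings (orange bars), with lines at 0, at 2-fold and at the median of all tested genes. The order runs from *Mx1* at 8.55 to *Ifitm2* at 0.46, and the bars of the 6 risen genes stay far to the right of 2-fold.

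Within each library, *Ifitm2* exceeded *Ifitm3* in all 3 controls and lay below it in all 3 mutants. The log2 ratio of *Ifitm2* to *Ifitm3* was 1.01 ± 0.61 in the controls and -2.44 ± 0.18 in the mutants, a difference of -3.45 (exact permutation p = 0.1, adjusted 0.125). For *Ifitm1* to *Ifitm3* the ratio was tightly held in the controls, at -3.74, -3.73 and -3.90, and stood at -7.59, -6.71 and -6.98 in the mutants, a difference of -3.30 (exact permutation p = 0.1, adjusted 0.125). The ratio of *Ifitm1* to *Ifitm2* was -4.80 ± 0.67 and -4.65 ± 0.41, and the difference of 0.15 was within the spread (exact permutation p = 0.9, adjusted 0.9). These ratios do not depend on the size factors. Identical runs between transcripts of the 3 genes reach 40 bases (*Ifitm1* and *Ifitm2*), 64 (*Ifitm1* and *Ifitm3*) and 69 (*Ifitm2* and *Ifitm3*), all shorter than a read. The ISRE core printed above for *Ifitm2* has the same letters as the first of *Ifitm3*.

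**Figure D3:**
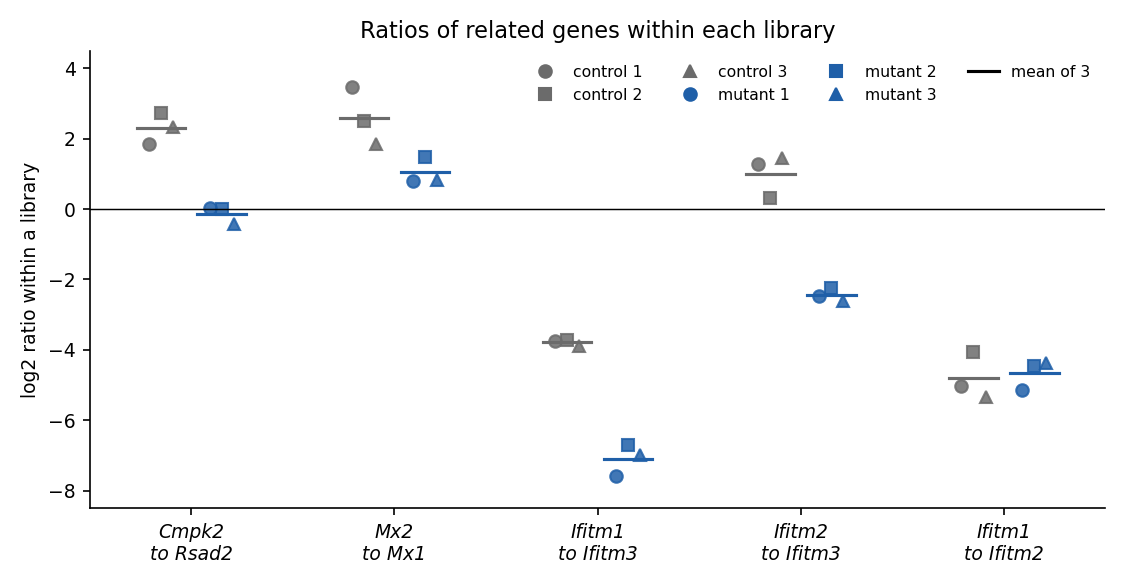
Log2 ratio of the values (each + 1) of 2 related genes within a library, with 1 point per library (gray for control-labelled, blue for mutant-labelled) and a bar at the mean of 3. Groups are separate for 4 of the 5 pairs and overlap for *Ifitm1* to *Ifitm2*.

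Levels of different genes were compared per kb of merged GENCODE M21 exon, since the lengths of the counted regions are not given in the sources used here. In the controls the order of mean level per kb was *Ifitm2* (15537 ± 1403), *Ifitm3* (7983 ± 3787), *Bst2* (3618 ± 2678), *Ifitm1* (362, from 206 to 569 in single libraries), *Cmpk2* (48.8 ± 20.2), *Mx2* (42.4 ± 23.2), *Rsad2* (8.92 ± 1.49) and *Mx1* (5.97 ± 3.05). Neighbors in this order whose libraries overlapped were *Ifitm3* and *Bst2*, *Cmpk2* and *Mx2*, and *Rsad2* and *Mx1*. In the mutants *Ifitm3* came first at 111799 ± 4842 per kb, followed by *Bst2* at 80838 ± 17956, *Ifitm2* at 21371 ± 2440.3 and *Mx2* at 4685 ± 355. *Mx1* (2225 ± 587), *Rsad2* (1739 ± 496) and *Cmpk2* (1627 ± 399) came next, where the libraries of *Mx1* overlapped those of *Rsad2* and the libraries of *Rsad2* those of *Cmpk2*, and *Ifitm1* came last at 517 ± 132. The membrane factors (*Bst2* and the 3 *Ifitm* genes) stood above the nucleotide enzymes and GTPases per kb in the controls, and in the mutants all of them but *Ifitm1* did.

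Most of the 8 genes had the same highest and the same lowest library among the controls. Control replicate 2 held the highest control value in 7 of the 8 genes, all but *Ifitm2*, where 30.5% of tested genes had their highest control value. Control replicate 3 held the lowest control value in 7 of the 8, all but *Cmpk2*, against 31.4% of tested genes. Of 35 other antiviral genes, 28 were also highest in control replicate 2. One of these is *Isg15*, a ubiquitin-like modifier, with 722, 2635 and 375 in the controls. *Irf7*, a transcription factor of interferon genes, followed the same order with 492, 1947 and 204, while *Ifnb1* had no reads in any control. Without control replicate 2 the log2 fold changes were 7.64 for *Rsad2*, 5.41 for *Cmpk2*, 8.92 for *Mx1*, 7.31 for *Mx2*, 5.27 for *Bst2* and 4.27 for *Ifitm3*. All 6 remained past the threshold without it. Among the mutants, 5 of the 8 were lowest in replicate 2, where 36.7% of tested genes were lowest. Why these libraries differed was not tested.

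**Figure D4:**
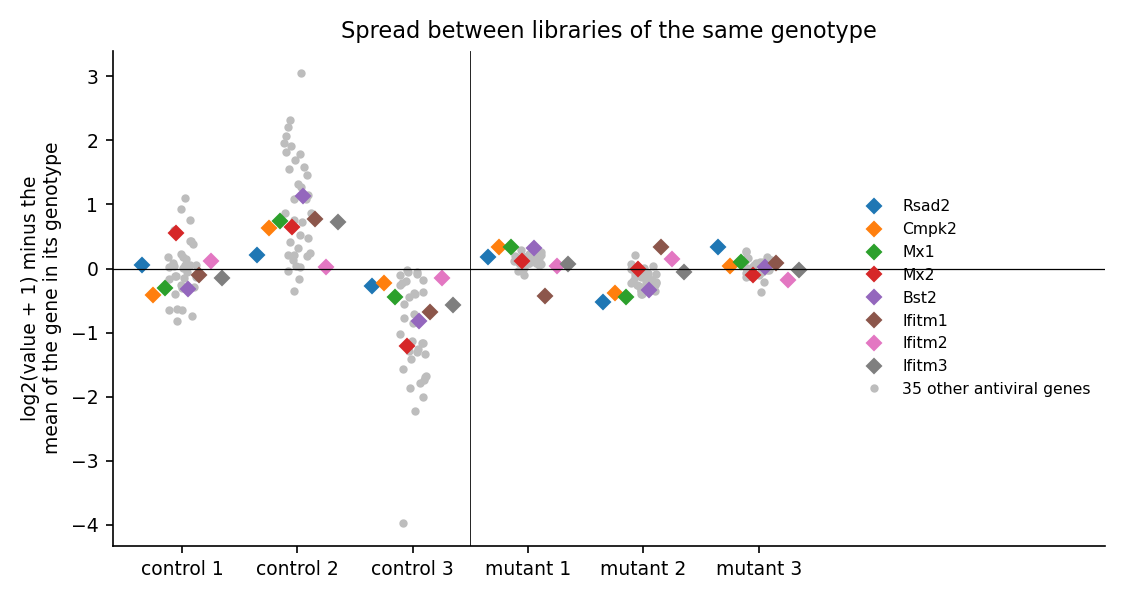
Log2(value + 1) of each gene in a library minus its mean over the 3 libraries of the same genotype, for the 8 antiviral genes (colored diamonds) and 35 other antiviral genes (gray points). The points lie mostly above 0 in control 2 and below 0 in control 3, and the mutant libraries are much closer together.

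Genes of the pathway around these effectors rose in part, and their counts stand beside the 13.9% of all tested genes that rose. Among 14 genes of RNA sensing and interferon production, 8 rose and none fell (median log2 fold change 3.49). They include *Ifih1* (559 ± 331 to 25699 ± 3356, log2 fold change 5.69) and *Irf7* (881 ± 935 to 81990.2 ± 15216, 7.12). The interferon genes *Ifnb1* and *Ifna4* were without reads in every control, and their mutant values were 460.4 ± 49.8 and 116 ± 25.9. The adaptor *Mavs* did not pass, at -0.20 on the log2 scale (adjusted p = 0.241 from limma). Among 11 receptor and signaling genes, 4 rose and none fell (median 0.67). The transcription factor genes *Stat2* (2.98), *Irf9* (2.94) and *Irf1* (2.75) were among those that rose, while the receptor genes *Ifnar1* (-0.38) and *Ifnar2* (0.75) did not pass. Of 7 feedback inhibitors, 5 rose and none fell (median 1.70), led by the ISG15 protease gene *Usp18* at 6.18.

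Of the 35 other antiviral genes tested, 34 rose and none fell, with a median log2 fold change of 4.91, beside 4.90 for the 8 genes. The range ran from 1.60 for *Samhd1*, a dNTP hydrolase, to 8.28 for *Oas3*, a 2′-5′ oligoadenylate synthetase. The antiviral change of *Ifitm1* and *Ifitm2* thus lay below that of all 34 risen genes of this list.

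Structural relatives of the 8 genes were read against the 24.2% of all tested genes that passed the threshold in either direction. None of 6 other radical SAM enzymes related to *Rsad2* passed the threshold (median log2 fold change 0.14), and none of 10 pyrimidine nucleotide and thymidine kinases related to *Cmpk2* did (median 0.30). The cytosolic UMP/CMP kinase gene *Cmpk1* had 3852 ± 132 and 4587 ± 399.9, a log2 fold change of 0.25. Of 10 other dynamin superfamily GTPases, 2 fell and none rose, the neuronal dynamin gene *Dnm3* (log2 fold change -1.42) and the atlastin gene *Atl1* (-1.31). Of 8 other genes with a CD225 domain, the domain of the IFITM proteins, 2 rose and 1 fell. *Ifitm6* went from 22.8 ± 12.9 to 56.7 ± 22.7 (log2 fold change 1.33, adjusted p = 0.0931 from limma) and *Tmem233* from 2.96 ± 1.33 to 40.5 ± 33.2 (3.13, adjusted p = 0.016). *Tmem233* was abundant enough to test only by its mutant mean. The row that *Prrt2* shares with *Pagr1a* had a log2 fold change of -1.07. None of 5 genes for enzymes and partners that act on IFITM proteins passed, among them the palmitoyltransferase gene *Zdhhc20* (0.14) and the protease gene *Zmpste24* (0.06).

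The loci were read through the 3 tested genes with a symbol on either side of each of the 8 genes, 25 distinct neighbors in all. Of these, 7 rose and 2 fell, beside shares of 13.9% risen and 24.2% called in either direction over all tested genes, and their median log2 fold change was 0.26. *Fam3b* and *Pkp3*, counted among the 7, were abundant enough to test only by their mutant means. None of the 6 neighbors of *Rsad2* and *Cmpk2* passed the threshold, but only *Rnf144a* is close, and the other 5 lie 854 to 2151 kb from the nearer of both genes. *Rnf144a*, an E3 ligase gene 27.5 kb from *Rsad2*, had 370.3 ± 43.4 and 368 ± 63 (log2 fold change -0.01). Around *Mx1* and *Mx2*, the secreted factor gene *Fam3b*, which lies between them, was without reads in every control and had 64.7 ± 39.9 in the mutants. *Bace2*, an aspartic protease gene 4.1 kb from *Mx1*, fell from a mean of 2685 to 845 ± 110.4 (log2 fold change -1.67, adjusted p = 4.5e-05 from limma). *Zbtb21* (1.22) and the shared row of *Igsf5* and *Pcp4* (2.41) rose.

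Around *Bst2*, the endothelial diaphragm gene *Plvap* (1.39) and the low-level gene *Tmem221* (2.73) rose and *Ano8* fell (-1.08). In the *Ifitm* cluster, *Ifitm5*, the bone-related family member 4.55 kb from *Ifitm2*, had 78.8 ± 76.9 and 62.6 ± 25.3 (log2 fold change 0.19). *Ifitm6*, 4.95 kb from *Ifitm3*, rose by the values given above, and the plakophilin gene *Pkp3* went from 1.48 ± 2.56 to 16.9 ± 6.83 (3.28). No other row overlapped a member of the 8 on the same strand. An unnamed gene on the opposite strand overlapped *Ifitm3* (mean of 1894 in the mutants) and another overlapped *Ifitm2* (292), and the sources used here do not say whether the counting used strand.

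**Figure D5:**
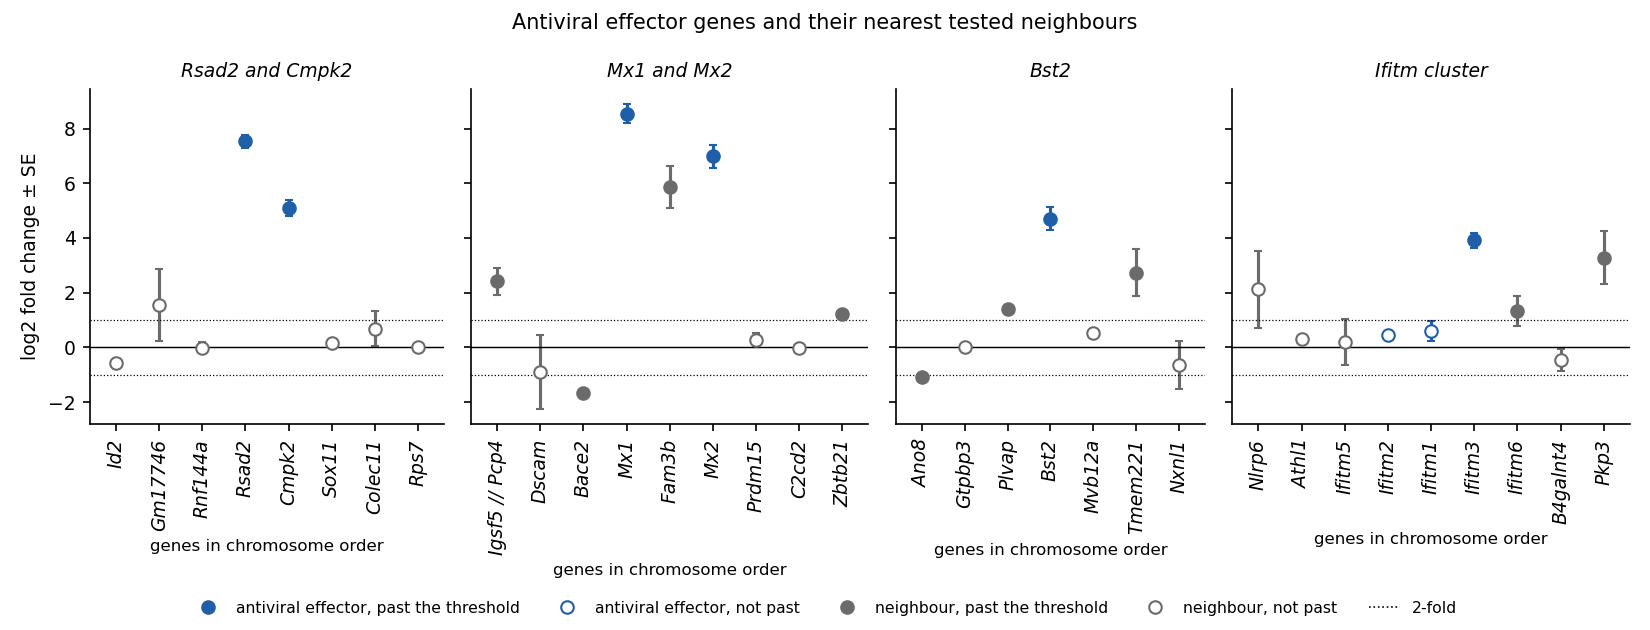
Log2 fold change with SE (n = 3 against 3) for the antiviral genes (blue) and their nearest tested neighbors with a symbol (gray) in chromosome order at 4 loci, filled where past the threshold. The antiviral genes that rose stand above the plotted neighbors of their own locus, and *Fam3b*, without reads in the controls, has a position that depends on the added 1.

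Genes whose profile over the 6 libraries was most like each of the 8 were found by the root mean square difference of log2 values after subtraction of the mean of each gene, among 13042 genes with a symbol and a mean of at least 100. This is a description of 6 libraries, and the step between genotypes enters each of these values. *H2-M2* and *Ifnb1*, named next, had a control mean of 0, so their distances depend on the added 1. *Rsad2* was nearest to *H2-M2* (0.48) and *Chac1* (0.51), *Cmpk2* to *Sp110* (0.17) and *H2-Q4* (0.22), and *Mx1* to *Ifnb1* (0.44) and *H2-Q5* (0.46). *Mx2* was nearest to *Cxcl9* (0.29) and *Ifi44* (0.34), *Bst2* to the immunoproteasome gene *Psmb8* and to *Misp* (0.21 each), and *Ifitm3* to *Uba7* (0.17) and *Parp9* (0.18). Genes nearest to *Ifitm1* were *Aim2* (0.12) and *Itgal* (0.16), and *Ifitm2* was nearest to *Shisa3* and *Ccp110* (0.05 each). Within the 8 genes, *Cmpk2* and *Bst2* were closest (0.37), followed by *Ifitm1* and *Ifitm2* (0.46) and by *Bst2* and *Ifitm3* (0.48). *Cmpk2* differed more from its neighbor *Rsad2* (1.26), and *Ifitm2* from its paralog *Ifitm3* (1.76).

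Markers of other cell types moved between the genotypes, and their part in the values of the antiviral genes was not tested. Their counts stand beside 13.9% risen and 24.2% called in either direction among all tested genes. Skeletal muscle markers rose in 6 of 7 cases, and their summed value was 6649 to 35095 in controls and 44954 to 340494 in mutants. Erythroid markers fell in 4 of 5 (44144 to 62503 and 4108 to 12706). Of 11 macrophage markers, 2 rose (*Aif1* and *Fcgr1*) and 4 fell, and their summed value was 18532 to 23518 in controls and 16413 to 19899 in mutants. Lymphocyte and pan-leukocyte markers rose in 4 of 9, with sums of 348 to 573 and 1027 to 1368. Of these 4, *Cd8a* and *Ncr1* had no reads in any control and were abundant enough to test only by their mutant means. In plasmacytoid dendritic cell markers, 1 of 4 tested rose (*Cox6a2*, which muscle also expresses) and 1 fell, while *Klk1* had no more than 3 reads in any library. The defining marker *Siglech* had 28.5 ± 13.2 in controls and 7.43 ± 11.2 in mutants. The sums of this list, 278 to 492 and 698 to 2874, were mostly *Cox6a2* in the mutants (219 ± 139 in controls and 1406 ± 1198 in mutants). Neutrophil markers rose in 1 of 4 tested (*Csf3r*), with sums of 29.3 to 174 and 152 to 554. Of 8 endothelial markers, 1 rose, and their sums overlapped, at 15667 to 23862 and 22368 to 30381. Fibroblast markers fell in 3 of 6 (2492103 to 2894382 and 1015169.5 to 1489827) and perineurial markers in 1 of 4 (16524 to 19954 and 13634 to 15714).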

How the data were processed

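Per the labels and the paper's methods, the authors made oriented libraries from poly-A RNA, sequenced them as paired reads of 130 bases, mapped them to mm10 with STAR, counted reads on constitutive regions of FAST DB genes and divided the counts by DESeq2 size factors. The deposited values (a signal per gene and library) were whole multiples of the value of 1 read for 100% of values within 0.01, and the reads so recovered were used for edgeR and DESeq2. Log2(value + 1) was fitted with limma (lmFit, eBayes with trend) for the 25802 genes whose mean reached 10 in a genotype. The sources used here do not say whether a shared replicate number marks a pair of animals, and the main fit used no pairing. The 8 genes, the gene lists and the named-gene rule (the 8 genes, list members, 3 neighbors on each side and the 5 most similar genes) were chosen with earlier results of these data known. Examples from lists are the largest and smallest changes and exceptions. Fold changes on the log2(value + 1) scale understate low genes, and p-values measure the spread between 3 animals per genotype. Related pairs were compared by exact permutation. Alternatives covered pseudocounts, filters, scalings, thresholds, tests, a replicate block and each library left out. List genes that the text does not name enter only the counts and medians. limma 3.58.1, edgeR 4.0.16 and DESeq2 1.42.0 ran in R 4.3.3, and numpy 2.4.6, pandas 2.3.3 and matplotlib 3.10.9 in Python 3.11.15.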

Additional observations from a re-analysis of the deposited data

How the results depend on the processing

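The same 6 genes passed the threshold under each of 18 alternatives, and none of the 8 changed direction. Log2 fold changes ranged from 7.24 to 7.80 for *Rsad2*, 4.89 to 5.41 for *Cmpk2*, 8.03 to 8.92 for *Mx1*, 6.38 to 7.31 for *Mx2*, 4.30 to 5.27 for *Bst2* and 3.62 to 4.27 for *Ifitm3*. *Ifitm1* (0.27 and more, adjusted p 0.0432 to 0.585) and *Ifitm2* (0.39 to 0.62, adjusted p 0.0019 to 0.0803) stayed under 2-fold. The difference in the log2 ratio of *Ifitm1* to *Ifitm2* reversed to -0.12 without control replicate 3, and ranged from -0.12 to 0.52 with each library left out. With a pseudocount of 10 in place of 1, the difference in the log2 ratio of *Mx2* to *Mx1* was -1.16 and its exact permutation p was 0.2, and the p was also 0.2 without any 1 of the mutant libraries (differences of -1.79 to -1.45). With the replicate number as a block, 6 of the 8 genes and 6149 of all genes passed, against 6251 without it. Deviations of same-numbered libraries had correlations of -0.0619, -0.0555 and 0.00891, which show no pairing by number but cannot exclude one. The block changed no call of the 8 genes. Rescaling to the same total moved the median log2 fold change of all genes from 0.03 to 0.19 and a common 75th percentile put it at -0.03, so *Ifitm2* lay between 0.39 and 0.62 by scaling. With 3 libraries per genotype and 12 to 47 reads behind each control value of *Mx1* and *Rsad2*, depth limits the precision of their fold changes.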
